A study of Homo sapiens with 12 samples.

Results

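The genes described here encode the proteins of the cytosolic ribosome. They were chosen by name and biotype, as protein_coding genes whose symbol is RPL, RPS or RPLP followed by a number and, for some, by an ending such as A, X, L or L1. RPS27L and the S6 kinase genes (RPS6K) were left out. The rule found 82 of the 25914 genes listed in both deposited tables. They comprise 30 genes of the small subunit (RPS), 43 of the large subunit (RPL), 3 of the acidic stalk of the large subunit (RPLP0, RPLP1 and RPLP2) and 6 paralogues whose names end in L or L1. The 76 members other than the paralogues are referred to as core members.

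The libraries came from HCT116, a colon cancer cell line, and from RPE-1 hTERT, a telomerase-immortalized line from retinal pigment epithelium, both wild-type per the labels. Each line received 10 µM Nutlin-3a or the solvent DMSO for 24 h, with 3 libraries in each of the 4 groups and 12 in all. Nutlin-3a occupies the p53-binding pocket of MDM2, so that p53 is no longer degraded and its target genes are switched on. The labels do not say whether the replicates were separate cultures, and each tissue is represented by 1 cell line.

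The cytosolic ribosome joins a small subunit, which decodes the mRNA, to a large subunit, which forms the peptide bond. Its proteins are needed in equal numbers, apart from those of the stalk, and most are encoded by a single active gene that has left many processed pseudogenes, which are intronless copies made by reverse transcription of the mRNA. The mRNAs typically begin with a run of pyrimidines, the 5′ terminal oligopyrimidine motif, through which their translation follows nutrient and growth signals. When ribosome assembly is disturbed, free RPL5 and RPL11 bind MDM2 together with 5S rRNA, and p53 rises.

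The quantity used is the base mean, which is the mean of the normalized read counts of a gene over libraries as the authors computed it. It was the same in both tables for all 25914 genes. It gives 1 value per gene, with no value per library, no error and no reads per library, so the depth is unknown and no difference between genes was tested against a spread between replicates. The change with Nutlin-3a is held only in the authors' own fold changes and p-values, which were not used, so the levels are described and no treatment is compared. Which libraries entered the mean is not given in the sources used here. Of 5 genes of luminal breast cells, which neither line is, 3 stood high, with base means of 19944 for GREB1, 15906 for GATA3 and 13215 for TFF1, whereas ESR1 had 1335 and PGR 480.4. The retinal pigment epithelium genes RPE65, RLBP1 and TYR and the colon genes CDX1 and CDH17 were not listed. The other retinal pigment epithelium genes examined were, with base means of 483.9 for MITF, 67.9 for BEST1 and 67.2 for PMEL. Of the colon genes, CDX2 had a base mean of 248 and EPCAM one of 2479.7, LGR5 had 12.1 and VIL1 had 5.68. The mesenchymal gene VIM had 63458. The base means below therefore rank genes over an average of libraries and are not levels in HCT116 or in RPE-1 cells.

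Members made up 0.316% of the listed genes and held 2.68% of the summed base mean. Their median base mean was 7420.4, beside 650.6 for all 15758 protein_coding genes and 149.8 for all listed genes. The median member stood at percentile 97.5 of all listed genes. A base mean of at least 1000 was reached by 66 of 82 members (80.5%), beside 39.8% of protein_coding genes. Among the 100 genes with the highest base mean 7 were members, among the first 500 there were 36, and among the first 1000 there were 46. Members lay on 21 chromosomes, with 12 on chromosome 19 and 8 on chromosome 3.

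RPL8, a large subunit protein next to the site of peptide bond formation, had the highest base mean of all members at 54924, and ranked 22 among all listed genes. RPS14, a small subunit protein whose loss of 1 copy is known from the 5q− syndrome, followed with 35620. RPS3, which lines the mRNA entry channel, had 35185. RPL3, a large protein that reaches towards the catalytic centre, had 31027. RPS6, the substrate of the S6 kinases, had 30561. At the other end of the core members stood RPS10 with a base mean of 60.7, RPS26 with 130.7, RPL36A with 144.3, RPL21 with 155.6 and RPS27 with 179.6. Both subunits were represented at both ends, and the listed base means of core members differed by up to 905-fold. These are RNA counts without correction for gene length. The lowest members had copied or overlapped sequence, as given further on. Among 27 core members with little of it, base means lay between 2810 and 54924.

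**Figure D1:**
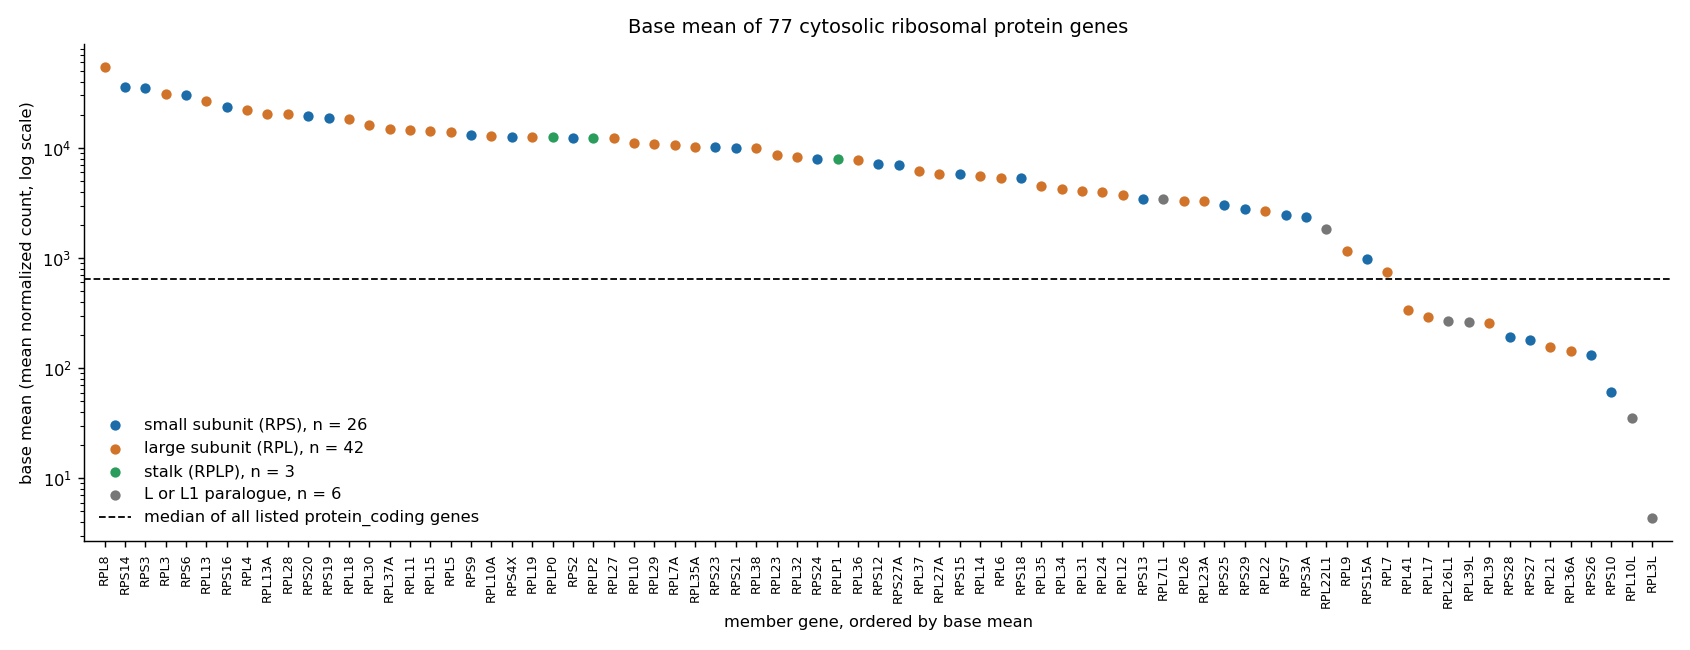
Base mean of 77 of the 82 members on a log axis, ordered from highest to lowest and coloured by subunit, with the median of protein_coding genes (650.6) as a dashed line. The curve declines gradually from RPL8 at 54924 to RPL7 at 751.9 and then drops, with 9 core members between 60.7 and 340.6.

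Levels of different genes were compared per length, as base mean per kb of the union of annotated exons. On this scale, the median was 2401 for all members and 2471 for core members, against 1241 for 38 cytosolic translation factors, 501.5 for 77 mitochondrial ribosomal protein genes and 120.3 for protein_coding genes. The median member was 4.79 times the median mitochondrial ribosomal protein gene. By subunit, the median base mean per kb was 2792 for the small subunit, 2243 for the large subunit and 3142 for the stalk. On coding length the small and large subunits stood in the opposite order, at 16389 and 17213. Per kb of exons, the 3 stalk genes had 3142 (RPLP0, which anchors the others), 2450 (RPLP1) and 7491 (RPLP2), although RPLP1 and RPLP2 enter the ribosome as pairs. On coding length RPLP1 and RPLP2 lay closer, at 23292 and 35542.5. RPL5 and RPL11, the 5S RNP proteins that can bind MDM2, had neighbouring base means of 14055 and 14517, and per kb of exons 3812 and 5459.5.

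The highest base mean per kb of exons among core members was that of RPL8 with 25440, and RPS6 with 11336, RPS12 with 11177 and RPS21 with 9704 were also among the highest. The lowest were RPS10 with 26.2, RPL36A with 36.4, RPS26 with 63.7 and RPL21 with 70.9. On the canonical transcript the order of the highest changed, with RPL8 at 51331, RPS21 at 28081, RPS6 at 22324 and RPS12 at 14199 per kb. Other core members then stood between them. RPS10 and RPS26 are small subunit proteins that are each known to be mutated in Diamond-Blackfan anaemia. Per kb of exons, the ratio of the 90th to the 10th percentile was 54.4 over the core members. The same ratio was 10.5 for the mitochondrial ribosomal protein genes and 21.7 for the translation factors, so the core members had the widest spread of the 3 lists. This order turned when members with copied or overlapped sequence were left out, as given further on.

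**Figure D2:**
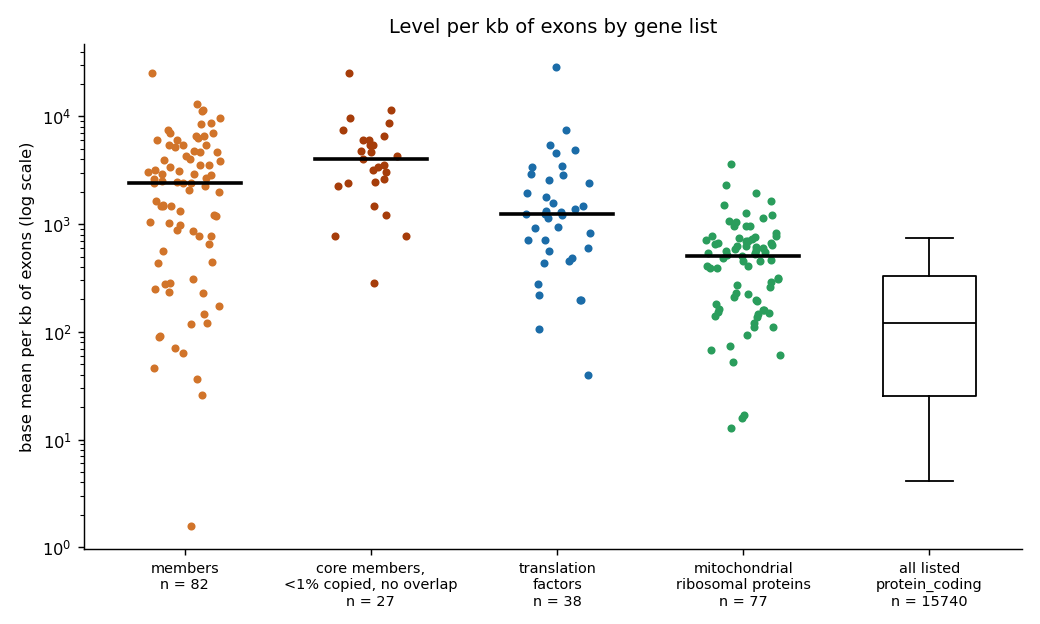
Base mean per kb of exons on a log axis for members, for the 27 core members with little copied sequence, for translation factors and for mitochondrial ribosomal protein genes (1 point per gene, line at the median), with all protein_coding genes as a box of the quartiles with whiskers at the 10th and 90th percentiles. Members have the higher median, 2401 against 501.5 for the mitochondrial list. Their tail below 100 is absent from the 27 members, whose median is 4038. The mitochondrial list and the translation factors also reach below 100, with lowest values of 12.9 and 39.7.

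Because processed pseudogenes repeat the mRNA, a sequencing read from a member can fit several places in the genome. The study's methods kept uniquely mapped reads, and the labels give reads of 101 cycles. Every window of 101 bases of each member's canonical transcript was therefore searched for at every other position of the main chromosomes of hg38. At least 1 window occurred exactly elsewhere for 56 of 82 members (68.3%). The same held for 7 of 77 mitochondrial ribosomal protein genes (9.09%) and for 21 of 38 translation factors (55.3%). The median share of copied windows was 5.24% for members, 0 for the mitochondrial list and 0.637% for translation factors. Only members had transcripts with at least 50% of windows copied among these 3 lists, and there were 11 of them.

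The level of a core member went with the copied share of its transcript. The 22 core members without a copied window had a median base mean of 12910, the lowest being RPS29 with 2810. The median was 7992 for 27 members with less than 25% copied, 3488 for 16 members with 25 to 50% and 340.6 for 11 members with at least 50%. Spearman's rho between copied share and base mean was −0.593 over the 76 core members, and −0.522 with base mean per kb. With only windows centred on a coding base, referred to as coding windows, rho was −0.616 for base mean. Such windows can reach beyond the coding part. The number of listed pseudogenes, by contrast, had a rho of −0.0748 with base mean. These are descriptions across genes that share libraries, and genes are not independent replicates.

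The low members were examined one by one, with limits chosen after their values were seen. Of the 12 core members with a base mean under 1000, 11 had at least 50% of coding windows copied or at least 40% of the transcript overlapped by exons of another gene on the same strand. Among the 64 core members at 1000 or more, 8 did. With at least 30% of all windows copied in place of the coding limit, the counts were 11 of 12 and 14 of 64. In RPL21 every window was copied, and the coding windows were copied to 100% in RPL39, 99.3% in RPL36A, 96.9% in RPS28, 95.8% in RPS27, 93.3% in RPS26 and 92.0% in RPL7. In RPS28 the copied windows were mostly centred in the coding part, as only 16.7% of the windows of its whole transcript were copied. RPS15A, with a base mean of 982, was the exception under the coding limit, with 8.72% of coding windows and 34.9% of all windows copied. Under the limit of 30% of all windows, RPS28 was the exception.

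Some of the low members with copied coding windows also overlapped a readthrough gene, which is annotated from a member into its neighbour. RPS10 shared 84.0% of its transcript with RPS10-NUDT3, RPL17 shared 96.9% with RPL17-C18orf32, and RPL36A shared 43.8% with RPL36A-HNRNPH2. Their coding windows were copied to 67.3% in RPS10, 63.2% in RPL17 and 99.3% in RPL36A. RPL26 was overlapped over 65.3% and had a base mean of 3274. Reads that lie in exons of more than 1 gene are left unassigned by featureCounts unless it is set otherwise. The settings for such reads are not given in the sources used here, and the part of copies and of overlap in these levels was not tested.

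**Figure D3:**
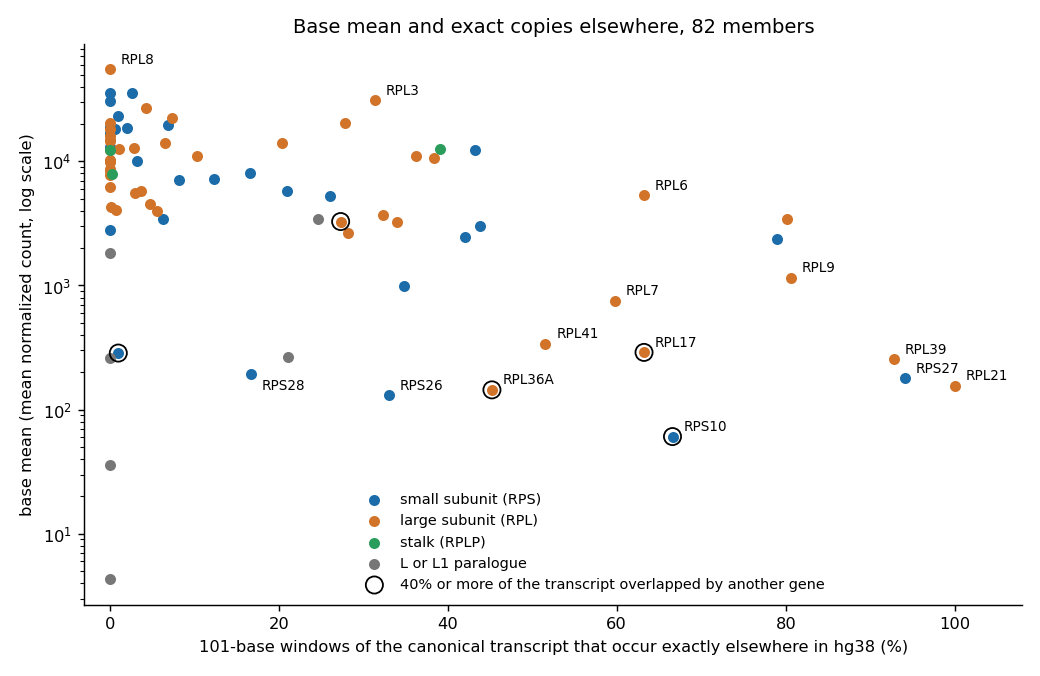
Base mean (log axis) of the 82 members against the share of 101-base windows of the canonical transcript found exactly elsewhere in hg38, with rings around members overlapped over at least 40% by another gene. The 11 core members at or right of 50% have a median of 340.6, whereas members without copied windows, paralogues aside, start at 2810.

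The 27 core members with less than 1% of windows copied and no overlap offer the levels that are least shared with other sequences. They included RPL8, RPS3, RPS6, RPL11, RPL28, RPS19 and RPS4X. Their base means lay between 2810 and 54924, with a median of 12665. Per kb of exons their median was 4038, which is 8.05 times that of the mitochondrial ribosomal protein genes. The ratio of the 90th to the 10th percentile was 8.76 among them, lower than the 54.4 of all core members and also lower than the 10.5 of the mitochondrial ribosomal protein genes and the 21.7 of the translation factors. The comparison lists were not filtered in the same way. Copies that differ at a few bases were not counted by this limit. Among the members named here, listed pseudogenes summed to between 0 (RPL28) and 34.9% (RPS19) of the member's base mean, with 33.7% for RPS4X.

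Pseudogenes named for the members were themselves listed with high base means. There were 307 of them, for 73 of the 82 members, with 209 at a base mean of at least 10 and 57 at 1000 or more. They formed 7.31% of the 4198 listed pseudogenes and 23.9% of their summed base mean. Their sum was 356801, which is 48.3% of the 738686 of the members they are named for. RPL5 had the most listed pseudogenes, 15, with a summed base mean of 8400 beside its own 14055. RPL23A, which lies at the exit of the peptide tunnel, had 13 with 3704 beside 3265. RPL7 had 11 with 13544 beside 751.9. RPS4X had 11 with 4267 beside 12665, and RPL31 and RPL35A each had 10, with 854.5 beside 4082 and 628.1 beside 10176. Among these 6 members the pseudogenes exceeded the member only for RPL23A and RPL7.

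For 21 members the listed pseudogenes together exceeded the member, and for 17 a single pseudogene did. RPL13AP5, with a base mean of 43110, ranked 34 among all listed genes, above RPL13A with 20442. RPLP0P6 had 27203, beside 12529 for RPLP0. RPS2P5 had 13456 and RPS2P46 12813, beside 12281 for RPS2. RPL14P1 had 12658 beside 5593 for RPL14. Among the low members, RPS28P7 had 5807 beside 193.4 for RPS28, RPL7P9 had 8958 beside 751.9 for RPL7, and RPL39P3 had 1693 beside 254.7 for RPL39. In others both sides were low, with pseudogene sums of 148.7 beside RPL21, 18.6 beside RPS26 and 19.3 beside RPL36A. A low member was therefore not always accompanied by a high pseudogene.

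**Figure D4:**
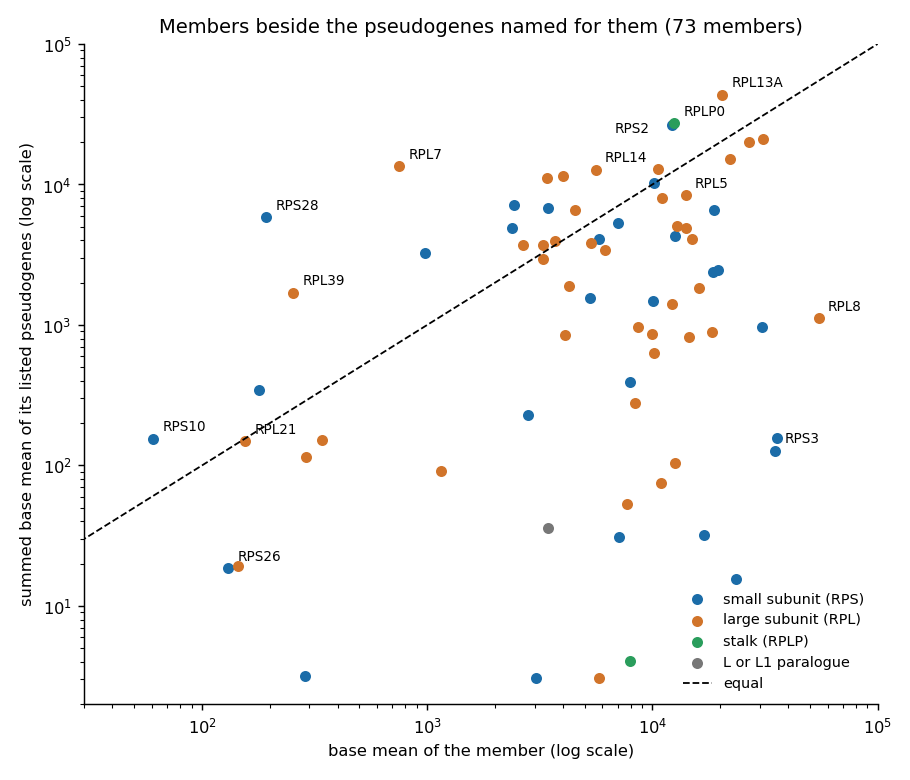
Summed base mean of the listed pseudogenes against the base mean of the member they are named for (both on log axes, 1 point for each of 73 members, dashed line where both are equal). The 21 members above the line include RPL13A (43559 against 20442), RPL7 (13544 against 751.9) and RPS28 (5848 against 193.4).

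The 3 pseudogenes with the highest base means are shown beside their parents, over the 60 coding bases of 1 exon in which the copies differ most, because they let a reader see how few positions tell a read of one from a read of the other. Bases that differ are in capitals, all sequences run 5′ to 3′ on the strand of the gene, and coordinates are those of hg38.
RPL13A (chr19:49490232-49490291, + strand, coding exon): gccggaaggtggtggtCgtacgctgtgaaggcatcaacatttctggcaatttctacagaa
RPL13AP5 (chr10:96750376-96750435, + strand, pseudogene): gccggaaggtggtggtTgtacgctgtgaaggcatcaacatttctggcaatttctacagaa
RPLP0 (chr12:120198587-120198646, − strand, coding exon): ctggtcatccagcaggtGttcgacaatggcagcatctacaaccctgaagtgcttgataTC
RPLP0P6 (chr2:38482409-38482468, + strand, pseudogene): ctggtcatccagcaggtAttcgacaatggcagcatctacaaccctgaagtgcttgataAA
RPL13 (chr16:89561294-89561353, + strand, coding exon): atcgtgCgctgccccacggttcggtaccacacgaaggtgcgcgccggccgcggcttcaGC
RPL13P12 (chr17:17383782-17383841, − strand, pseudogene): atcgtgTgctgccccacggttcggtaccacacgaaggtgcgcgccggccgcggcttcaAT

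Even in its most different stretch RPL13A differed from RPL13AP5 at 1 base, and over all 609 coding bases at 3, an identity of 99.5%. Of its 509 windows of 101 bases that lie wholly within the coding part, 240 (47.2%) occurred exactly in the pseudogene. RPLP0 and RPLP0P6 differed at 11 of 951 bases (98.8% identity), and 27.4% of the windows were identical. RPL13 and RPL13P12 differed at 10 of 633 bases (98.4%), with 12.2% of windows identical, and RPL13P12 had a base mean of 20074 beside 26971 for RPL13. RPS2 and RPS2P5 differed at 11 of 879 bases (98.7%), with 234 of 779 windows identical. Reads within the identical windows fit both copies, and the base means of parent and pseudogene are uncertain as measures of either.

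The L and L1 paralogues ranged from percentile 6.67 of all listed genes for RPL3L to percentile 92.3 for RPL7L1. RPL3L, a striated muscle counterpart of RPL3, had a base mean of 4.30, which is 0.0139% of that of RPL3. RPL10L, an intronless testis counterpart of RPL10, had 35.5, beside 11051 for RPL10, or 0.321%. RPL26L1 had 266.6 beside 3274 for RPL26, or 8.14%. RPL22L1 had 1821 beside 2652 for RPL22, or 68.7%. RPL7L1, a relative of RPL7, had 3432 beside 751.9, or 456%. Per kb of exons RPL7L1 was at 158% of RPL7, and on the canonical transcript at 125%. RPL39L, known from male germ cells, had 259.9 beside 254.7 for RPL39. RPL7 and RPL39, the parents with the lower base mean of their pair, had at least 92.0% of coding windows copied, while the share was 22.7% in RPL7L1 and 0 in RPL39L. RPL3L, RPL10L, RPL22L1 and RPL39L had no copied window.

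Per kb of exons, RPL22L1 stood at 888.1 and RPL22 at 568.4, an order opposite to that of their base means. With the canonical transcript as the length, RPL22L1 was at 74.4% of RPL22. RPL39L was at 251.6 per kb of exons and RPL39 at 119.7, whereas on the canonical transcript RPL39L was at 54.6% of RPL39. The order of both pairs thus depended on the length used, and 67.4% of the coding windows of RPL22 were copied elsewhere.

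The first bases of the mRNAs shared a feature that the naming rule did not use. RefSeq start sequences (GRCh38.p14) were at hand for 65 of the 82 members. A run of at least 5 pyrimidines (C or T) beginning at the annotated start was found in 42 of 65 (64.6%), against 5.25% of the 12425 protein_coding genes listed and 5.22% of all 27305 promoters. The share was 5.88% for mitochondrial ribosomal protein genes and 33.3% for translation factors. The first base was C in 70.8% of members and in 11.4% of protein_coding genes. The longest pyrimidine run touching the 5 bases on either side of the start had a median length of 11 in members and 4 in protein_coding genes. TATAAA, read on the strand of the gene in the 50 bases before the start, was present in 4 members (6.15%) and in 2.52% of protein_coding genes. Of the 61 core members with a start sequence 2 had it (3.28%), and the other members with it were the paralogues RPL22L1 and RPL10L. A match is a description of these letters and not evidence of use.

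The start sequences of 9 members are shown to let the run be seen in members at both ends of the range and in members without it. The annotated start is the seventh base of each, and capitals mark the pyrimidine run near the start, which may begin before the bases shown.
RPL13A (chr19:49487602-49487623, + strand): CTCCTCCTTTTCCaagcggctg
RPLP0 (chr12:120201096-120201117, − strand): cgaggCCCTTCTCTCgccaggc
RPS3 (chr11:75399512-75399533, + strand): ccaCTTCCTTTCCTTTCagcgg
RPS14 (chr5:150449724-150449745, − strand): cccaCTCTCTCTTTCCggtgtg
RPL21 (chr13:27251552-27251573, + strand): CTCTTTCCTTTCggccggaacc
RPL22L1 (chr3:170870180-170870201, − strand): agCTTCCTCTCTgctctcgcgg
RPS26 (chr12:56041912-56041933, + strand): aacctcgaTTTTCTTCCgccat
RPL11 (chr1:23691773-23691794, + strand): gcccataaggCCCTCggccgga
RPL13 (chr16:89560651-89560672, + strand): atcaTCCCagagtgcattgcgg

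RPS3 and RPS14, at base means of 35185 and 35620, and RPL21, at 155.6, all had the run, of 14, 12 and 13 bases. Among the paralogues, RPL22L1 had it as well, with 10 bases. In RPS26 and RPL11 a run of 9 and of 5 bases lay downstream of the annotated start and was not counted, and RPL13 had 4 pyrimidines. Counting a run that begins with C within 5 bases of the start raised the share to 76.9% of members and 22.5% of protein_coding genes.

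Introns of 27 members contained 58 genes of small nucleolar RNAs, which guide chemical modification of rRNA. RPL4 had 5, and RPL13A, RPL23A and RPL7A had 4 each. Of the 58, 14 were listed by identifier, with base means from 3.17 to 89.6 and a median of 23.8. None of the snoRNA genes of RPL4, RPL13A and RPL7A was listed, whereas 2 of the 4 in RPL23A were, SNORD4A with 26.9 and SNORD42B with 3.17. Small RNAs are recovered unevenly in libraries for longer RNA, so these values do not compare snoRNA with host.

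Cytosolic ribosomal proteins whose names fall outside the rule had levels within the range of the members. RPSA, a small subunit protein also known as the laminin receptor, had a base mean of 3699. FAU, which encodes a ribosomal protein fused to a ubiquitin-like protein, had 8448. RPL36AL, which encodes nearly the same protein as RPL36A, had 4085, beside 144.3 for RPL36A. Per kb of exons they stood at 481.1, 5457 and 6042 in the same order, with RPL36AL far above the 36.4 of RPL36A. RPL36A had 99.3% of coding windows copied and 43.8% of its transcript overlapped, and RPL36AL was not part of the copy search.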

How the data were processed

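RNA-seq libraries of HCT116 and RPE-1 cells were grouped by the cell line and treatment in their labels. The authors deposited 1 DESeq2 table per cell line. In both, the authors' deposited signal column (base mean) holds their average of normalized counts for each gene, with the same values. The other deposited columns hold log2 fold changes, standard errors, test statistics and p-values of Nutlin-3a against DMSO and were not used, so no comparison of treatments was made and no value per library, error or depth was available.

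Per the submitters' processing notes, hg38, bcl2fastq 2.20.0.422, Trimmomatic 0.39, FastQC 0.11.9, cutadapt 3.3, SAMtools 1.12, featureCounts 2.0.1 and DESeq2 1.32.0 were used. The study's methods name unique alignments by segemehl to hg38 and an Ensembl annotation. The labels describe depletion of rRNA, whereas the study's methods describe poly(A) selection. A count of unique reads leaves out reads that fit several places exactly.

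Exons, lengths and overlaps were taken from GENCODE 44 on the same build, in which 25836 of 25914 genes and all 82 members were found by identifier. Windows of 101 bases of canonical transcripts were searched on both strands of the main chromosomes, and the search was tested on simulated data. Coding parts of parents and pseudogenes were aligned locally with Biopython 1.88. A pseudogene was assigned by name (the member's name, P and a number, with a pseudogene biotype). Computations ran in Python 3.11.15 (scipy 1.17.1, pandas 2.3.3, numpy 2.4.6), with plots by matplotlib 3.10.9.

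Members, lists, and the rule for named genes were chosen with earlier results of these data known. The rule named the 5 core members highest and lowest per kb, the 5 highest base means, the 5 with most pseudogenes (ties included), the stalk genes, RPL5, RPL11, the paralogues with their parents, the 3 with most snoRNA genes (ties included) and the genes that the naming rule misses. Some genes that this rule names are not reported here. Other genes were named after their values were seen. Alternatives covered the length measure, the genes counted, a base mean of at least 10, the position and first base of the pyrimidine run and, added after seeing the data, the canonical transcript, pseudogenes, members with few copies and windows of 50 bases.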

Additional observations from a re-analysis of the deposited data

How the results depend on the processing

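The 9 results were recomputed under 26 alternatives, of which 17 were counted as keeping them and 9 as moving them. A change of 1.5 times was the limit. The shares with a pyrimidine run and with a copied window were counted as moved although they changed by less than that. The median base mean per kb of members, 2401 on the union of exons, was 15431 on coding length, 4019 on the longest transcript and 6968 on the canonical transcript, as shorter lengths raise every value. The ratio of members to mitochondrial ribosomal protein genes, 4.79, was 8.57 on coding length, 7.82 on the canonical transcript and 8.05 over the core members with few copies. The ratio of the 90th to the 10th percentile among core members fell from 54.4 to 29.7 when the listed pseudogenes were added to their parents; the cause was not tested. The share with a pyrimidine run was 76.9% in place of 64.6% when any run that begins with C within 5 bases of the start was counted. The share of members with a copied window was 98.8% with windows of 50 bases in place of 68.3%. No paired analysis was possible because the base mean holds no values per library, so neither a replicate block nor the omission of each library could be run. Precision per gene is unknown without reads per library.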

Other observations

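Among translation factors, the genes given here were chosen after their values were seen. EEF2, which moves the ribosome along the mRNA, had the highest base mean of the list at 115591, above every ribosomal protein gene, and also the highest level per kb of exons at 28747. TPT1 had a base mean of 53235, PABPC1, the poly(A)-binding protein, 51499 and EEF1A1, which delivers aminoacyl-tRNA, 48832. EIF4A1, a helicase that unwinds mRNA for initiation, was the lowest of the 38 listed factors with 206.4, beside 11038 for its relative EIF4A2. Exon overlap with other genes was computed for members only, so its part in the value of EIF4A1 was not tested. Of the factors, 92.1% reached a base mean of 1000, beside 80.5% of the ribosomal protein genes and 57.1% of the mitochondrial ribosomal protein genes. A pyrimidine run at the start was present in 10 of the 30 factors with a start sequence and 4 of the 68 mitochondrial ribosomal protein genes.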
